A study of Mus musculus with 24 samples.

Results

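The 10 genes described here make up the FGF21 signalling axis of the liver as a list fixed by name: the ligand Fgf21, its coreceptor Klb, the receptors Fgfr1, Fgfr2, Fgfr3, and Fgfr4, the feedback inhibitors Spry2, Spry4, and Dusp6, and the early response factor Egr1. They were picked by symbol out of 23972 genes in the count table, and all 10 were found. Liver RNA-Seq covered 24 female mice on a C57BL/6J background, housed at 22°C and fed a 60% high-fat diet that started 4 weeks before the injection and ran until euthanasia 8 weeks after it. The mice were 12 to 14 weeks old when the study began. Controls carried floxed Lmna without Cre, and LmnaADKO mice carried floxed Lmna with Adipoq-Cre, which acts in adipocytes and removes Lmna exons 10 and 11 there, so that the mice lose fat. Both genotypes therefore shared the floxed Lmna alleles and the diet. There were 7 vehicle-treated controls, 3 rescue-treated controls, 6 vehicle-treated LmnaADKO mice, and 8 rescue-treated LmnaADKO mice. Vehicle was PBS with F-68 Pluronic. The labels say only "Rescue", which was read as the AAV8 vector for mouse FGF21 of the 22°C experiment.

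FGF21 is an endocrine member of the fibroblast growth factor family that the liver makes under metabolic stress such as fasting or nutrient imbalance. It acts on cells that carry both an FGF receptor and the single-pass coreceptor beta-Klotho, the product of Klb, and signals through the adaptor FRS2 to the RAS, RAF, and ERK cascade. ERK switches on early genes such as Egr1, and also its own inhibitors. Sprouty proteins (Spry2 and Spry4) dampen the step from receptor to RAF, and the phosphatase DUSP6 removes the activating phosphates from ERK. The levels of these inhibitors are often used as a readout of ERK activity, although many receptors other than those for FGF feed into it.

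Each library held between 19863304 and 21510054 counts on genes, so that 3 counts, the floor used here, stood for 0.124 to 0.176 CPM, the counts scaled to a common library size. Libraries are numbered within groups. For 9694 protein-coding genes, each library's log2 CPM was taken as its deviation from the gene's median over libraries of the same genotype. This deviation was regressed on log2 exonic gene length. It fell most steeply in rescue-treated LmnaADKO mouse 7, rescue-treated control 3, and vehicle-treated control 3. Their slopes were -0.33, -0.29, and -0.15, against -0.11 to 0.13 in the others. Lmna ranged from 15.7 to 22.1 CPM in vehicle-treated controls and from 23.6 to 31.0 CPM in vehicle-treated LmnaADKO mice, a log2 difference of 0.52 (SE 0.12, edgeR adjusted p = 0.0032). Since Cre acts in fat, the level in liver checks no label. A gene was called where its edgeR quasi-likelihood p, adjusted by the Benjamini-Hochberg method for the whole table, was under 0.05 and its fold change above 1.5 either way. Summed hepatocyte markers were abundant in every library, from 63760 to 133900 CPM. In these bulk samples, fewer cells of a type and less RNA per cell cannot be told apart.

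With vehicle, 1 of the 10 genes was called between LmnaADKO and control livers, Spry4, which fell. The share of all genes called in that comparison was 8.48%, so a count of 1 in 10 lies near it. Among the 12492 genes whose mean log2 CPM reached 0, as it did for all 10, the share called was 11.7%. Of the 10, 6 had an unadjusted p under 0.05, a range that held 27% of all genes, those of lower level included. The median log2 fold change was -0.34 over the 10 genes and 0.00 over all genes. With rescue, 0 of the 10 were called by genotype, beside 2.88% of all genes. Rescue against vehicle called 0 of the 10 in either genotype, beside 0.0542% of all genes in controls and 0% in LmnaADKO mice. Those comparisons are given gene by gene below.

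**Figure D1:**
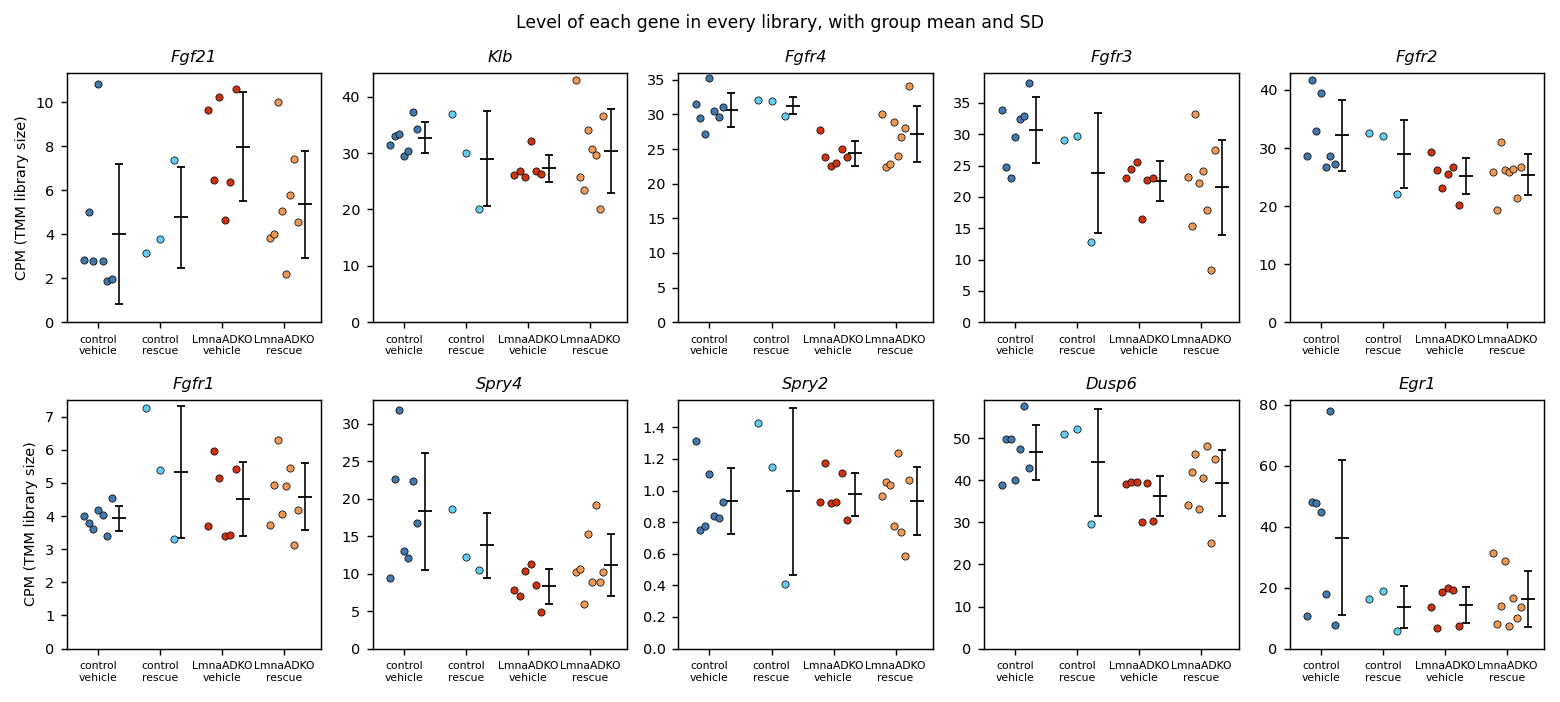
Each panel plots 1 gene, with the 4 groups on the x axis and CPM on TMM library sizes on the y axis from 0; points are libraries, and the black mark and bar at the right of each group are its mean and SD. Spry4 in vehicle-treated LmnaADKO mice sits between 4.87 and 11.3 CPM, and 4 of its 6 points lie below all 7 vehicle-treated controls.

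Fgf21, the ligand, lies at chr7:45613886-45615490 (GRCm38, minus strand, GENCODE M21) and shares its span with no other gene. Just upstream lie elements through which transcription factors of nutrient and stress sensing are known to act, so 250 bases before its start are shown. They cover chr7:45615491-45615740, read from the gene's strand 5′ to 3′ out of the RefSeq promoter table (GRCm38.p6). Capitals mark 3 motif matches.

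Fgf21 promoter: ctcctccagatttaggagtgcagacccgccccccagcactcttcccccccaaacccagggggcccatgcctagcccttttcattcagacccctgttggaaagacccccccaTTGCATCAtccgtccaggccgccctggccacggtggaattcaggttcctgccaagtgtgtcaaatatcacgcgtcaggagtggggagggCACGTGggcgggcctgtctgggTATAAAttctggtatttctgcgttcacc

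From left to right, these are the reverse complement of the ATF4 composite element TGATGNAA, starting 139 bases before the gene's start, the E-box CACGTG at 50 bases, and the TATA box TATAAA at 28 bases. Both strands were searched. Windows of the same kind, 250 bases before to 50 after a start, held the composite element in 3.97%, the E-box in 7.15%, and TATAAA in 13.6% of 32851 promoters. The GC box GGGCGG matched 3 times, at 225, 121, and 45 bases before the start, and the last match shares a base with the E-box. GC boxes were in 35.7% of windows. The cyclic AMP response element TGACGTCA and the ETS motif CCGGAAG, in 1.79% and 8.86% of windows, had 0 matches in the window of Fgf21. Windows were found for 7 of the 10 genes, with Spry4, Egr1, and Fgfr1 not examined. The composite element and TATAAA matched in none of the other 6, and the E-box matched once more, in the window of Fgfr2.

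Fgf21 levels overlapped between genotypes through 2 controls. In vehicle-treated controls the lowest level was 1.90 CPM, the median 2.80, and the highest 10.8, from 39 to 235 counts. In vehicle-treated LmnaADKO mice the lowest was 4.63 CPM, the median 8.04, and the highest 10.6, from 95 to 248 counts. Of the 7 controls, 5 lay below every vehicle-treated LmnaADKO mouse, control 2 at 5.01 CPM lay above its lowest, and control 4 at 10.8 CPM was the highest of both groups. The difference was 0.99 on the log2 scale (SE 0.38, 95% interval 0.20 to 1.79, edgeR adjusted p = 0.0898) and was not called. Without control 4 it was 1.47 and was called (edgeR adjusted p = 0.00243). DESeq2 called it with all libraries (0.99, adjusted p = 0.0313), as did edgeR on the 14699 genes kept by filterByExpr (0.99, adjusted p = 0.0483). These 3 were the only calls among 31 alternative fits of this comparison.

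Counts on Fgf21 did not set the rescue groups apart. In rescue-treated controls the levels were 3.14, 3.80, and 7.40 CPM, all within the range of vehicle-treated controls. In rescue-treated LmnaADKO mice they ran from 2.19 to 9.99 CPM with a median of 4.81, and 4 of 8 lay below all vehicle-treated LmnaADKO mice. The rescue difference was 0.24 on the log2 scale in controls (SE 0.48, 95% interval -0.77 to 1.24, edgeR adjusted p = 0.925) and -0.58 in LmnaADKO mice (SE 0.37, 95% interval -1.34 to 0.18, edgeR adjusted p = 0.73). Leaving out each library in turn gave -0.22 to 0.72 in controls. The genotype difference with rescue was 0.17 (SE 0.48, edgeR adjusted p = 0.902), and its change from vehicle to rescue was -0.82 (SE 0.60, interaction adjusted p = 1 by edgeR). Whether transcripts of the vector were counted on Fgf21 was not tested.

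Of the coreceptor and the 4 receptors, Fgfr4 alone passed the adjusted p between vehicle-treated LmnaADKO and control livers, and none passed the fold threshold. Klb (chr5:65348314-65384007), whose protein lets endocrine FGFs bind their receptors, ranged from 29.4 to 37.3 CPM in vehicle-treated controls, with a median of 33.0. In vehicle-treated LmnaADKO mice it ranged from 25.8 to 32.1 CPM with a median of 26.5, and 5 of 6 lay below all controls. The log2 difference was -0.26 (SE 0.14, 95% interval -0.55 to 0.02) and missed the threshold (edgeR adjusted p = 0.227). With rescue the groups spread more widely, at 20.1, 30.0, and 36.9 CPM in controls and from 20.2 to 43.0 CPM in LmnaADKO mice, and the genotype difference was 0.07 (SE 0.17, edgeR adjusted p = 0.88).

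Fgfr4 (chr13:55152640-55168759) encodes the main FGF receptor of hepatocytes, which with beta-Klotho receives the gut hormone FGF15. It ranged from 27.3 to 35.3 CPM in vehicle-treated controls with a median of 30.4, and from 22.6 to 27.7 CPM in vehicle-treated LmnaADKO mice with a median of 23.9. Only LmnaADKO mouse 1, at 27.7 CPM, reached into the control range. Fgfr4 was lower by 0.33 on the log2 scale (-0.33, SE 0.094, 95% interval -0.52 to -0.14, edgeR adjusted p = 0.0149), past the adjusted p but under the 1.5-fold threshold, at a fold of 0.795. With rescue, the 3 controls had 29.8, 31.9, and 32.1 CPM, and the 8 LmnaADKO mice ran from 22.4 to 34.2 CPM with 6 below all 3 controls. That difference was -0.20 (SE 0.11, edgeR adjusted p = 0.37). Averaged over both treatments, Fgfr4 differed by -0.27 (SE 0.073, edgeR adjusted p = 0.00886), again under the fold threshold.

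Fgfr2 (chr7:130162451-133123350) differed by a similar amount. It ranged from 26.7 to 41.8 CPM with a median of 28.6 in vehicle-treated controls, and from 20.2 to 29.3 CPM with a median of 25.8 in vehicle-treated LmnaADKO mice, 4 of them below all controls. The difference was -0.35 (SE 0.13, edgeR adjusted p = 0.0534). Averaged over treatments it was -0.27 (SE 0.097, edgeR adjusted p = 0.047), past the adjusted p only. The annotated span of Fgfr2 holds 69 other genes and shares exonic bases with Ctbp2 on its strand, so the assignment of its reads is uncertain.

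Fgfr3 (chr5:33721674-33737068) ranged from 23.1 to 38.3 CPM with a median of 32.5 in vehicle-treated controls and from 16.6 to 25.5 CPM with a median of 23.1 in vehicle-treated LmnaADKO mice, of which 2 lay below all controls. The difference of -0.44 (SE 0.22, 95% interval -0.91 to 0.02) missed the threshold (edgeR adjusted p = 0.21). With rescue it ran from 12.8 to 29.8 CPM in controls and from 8.40 to 33.2 CPM in LmnaADKO mice. Rescue-treated control 3 and rescue-treated LmnaADKO mouse 7 had the steepest slopes on gene length. They held the lowest Fgfr3, Klb, Dusp6, Fgfr1, and Spry2 of their groups. Rescue-treated control 3 was also the lowest of its group for Fgfr2, Fgfr4, Spry4, and Egr1, and the highest for Fgf21 at 7.40 CPM. What the slope contributes to these levels was not tested for single libraries. With the slope as a covariate, 1 of the 10 genes was still called by genotype with vehicle.

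Fgfr1 (chr8:25513654-25575718) encodes the receptor through which FGF21 acts in adipose tissue. It was scarce in liver, from 3.404 to 4.53 CPM in vehicle-treated controls and from 3.41 to 5.95 CPM in vehicle-treated LmnaADKO mice, 3 of which lay above all controls. The difference was 0.20 (SE 0.17, edgeR adjusted p = 0.492). Rescue-treated controls had 7.27, 5.39, and 3.32 CPM, 2 of them above all vehicle-treated controls and the other below them, a log2 difference of 0.44 (SE 0.21, unadjusted p = 0.047, edgeR adjusted p = 0.771). Fgfr1 and Fgfr3 each share exonic bases with a gene on the opposite strand.

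Per kilobase of annotated exon, Fgfr4 made up most of the FGF receptor level in every group. Its share of the sum of the 4 receptors was 52.6% ± 1.21 (SD, n = 7) in vehicle-treated controls, 57.7% ± 7.50 (n = 3) in rescue-treated controls, 53.3% ± 2.30 (n = 6) in vehicle-treated LmnaADKO mice, and 56.7% ± 7.08 (n = 8) in rescue-treated LmnaADKO mice. Fgfr3 followed with mean shares of 20.9% to 26.02%, then Fgfr2 with 17.98% to 19.0%, and Fgfr1 held 2.42% to 3.54%. The shares of Fgfr3 and Fgfr2 overlapped between libraries, whereas Fgfr4 was above both and Fgfr1 below both in every library. Exonic length counts all annotated isoforms, so genes with many isoforms are understated on this scale. In CPM without length, vehicle-treated controls had means of 32.2 for Fgfr2, 30.7 for Fgfr3, and 30.65 for Fgfr4. The lead of Fgfr4 thus rests on exonic lengths of 10328, 7158, and 3542 bases for Fgfr2, Fgfr3, and Fgfr4.

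**Figure D2:**
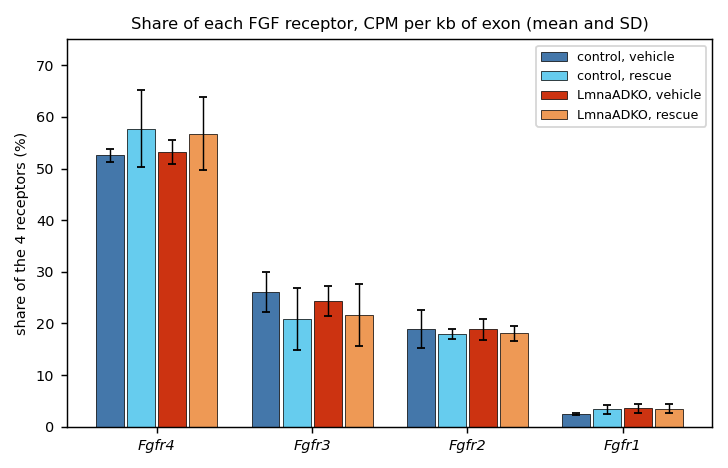
Bars are group means of each receptor's share, in percent, of the summed level of the 4 receptors in CPM per kb of exon; lines are SDs. Fgfr4 holds 52.6% to 57.7% in all 4 groups, and for each receptor the ranges over libraries overlap between groups.

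Across all 10 genes on the same length scale, vehicle-treated controls had the order Dusp6 (mean 14.9 CPM per kb), Fgfr4 (8.65), Egr1 (8.12), Klb (7.20), Fgfr3 (4.29), Fgf21 (4.2), Spry4 (3.85), Fgfr2 (3.12), Spry2 (0.447), and Fgfr1 (0.398). The ranges over libraries did not overlap between Dusp6 and Fgfr4, between Klb and Fgfr3, or between Fgfr2 and Spry2, and all other neighbours overlapped. In vehicle-treated LmnaADKO mice Dusp6 was again first (11.6 CPM per kb), Fgf21 was second (8.40), and its range overlapped those of Dusp6 and Fgfr4. Egr1 stood at 3.19 CPM per kb there, below Klb. These orders are descriptions of means, with no test between genes.

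Among the feedback inhibitors, Spry4 carried the called change. The gene (chr18:38586247-38601415) encodes a membrane-associated Sprouty protein that blocks receptor signalling to RAF. In vehicle-treated controls its lowest level was 9.44 CPM, the median 16.8, and the highest 31.9, from 208 to 577 counts. In vehicle-treated LmnaADKO mice the lowest was 4.87 CPM, the median 8.15, and the highest 11.3, from 114 to 247 counts. LmnaADKO mice 3 and 4, at 10.3 and 11.3 CPM, were above the lowest control, and the other 4 were below all controls. Spry4 fell by 1.14 on the log2 scale (SE 0.28, 95% interval -1.73 to -0.56, edgeR adjusted p = 0.00727), a fold of 0.454. It was called in 31 of 31 alternative fits of this comparison, with log2 differences from -1.25 to -0.94.

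With rescue, Spry4 was at 18.6, 12.2, and 10.4 CPM in controls and from 5.89 to 19.2 CPM, with a median of 10.2, in LmnaADKO mice. Of the latter, 5 lay below all 3 controls and 1 above them. The genotype difference was -0.31 (SE 0.33, edgeR adjusted p = 0.696). Rescue moved the means in opposite directions, by -0.41 in controls (SE 0.35, edgeR adjusted p = 0.801) and by 0.43 in LmnaADKO mice (SE 0.27, edgeR adjusted p = 0.736), and neither passed. The test of the difference between these effects gave 0.83 (SE 0.44, 95% interval -0.09 to 1.8, interaction adjusted p = 0.984 by edgeR), so a genotype effect that depends on rescue was not shown. Averaged over treatments, Spry4 was called, with a log2 difference of -0.72 (SE 0.21, edgeR adjusted p = 0.0192). It was the 1 gene of 10 called there, where 8.59% of all genes were called. Without rescue-treated control 1, the highest of its group of 3, the averaged difference was -0.58 and was not called (edgeR adjusted p = 0.0918).

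Spry2 (chr14:105891947-105896819), the other Sprouty gene of the list, was near the limit of what this depth can resolve, with 7 to 30 counts per library. Its group means were 0.933 CPM in vehicle-treated controls, 0.994 in rescue-treated controls, 0.977 in vehicle-treated LmnaADKO mice, and 0.933 in rescue-treated LmnaADKO mice, with SDs of 0.136 to 0.526. The genotype difference with vehicle was 0.06 (SE 0.23, 95% interval -0.41 to 0.53, edgeR adjusted p = 0.921). A fall of the size seen for Spry4 lies outside that interval.

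Dusp6 (chr10:99263231-99267489), the highest of the 10 genes by mean CPM, ranged from 39.0 to 57.6 CPM with a median of 47.5 in vehicle-treated controls, and from 30.1 to 39.7 CPM with a median of 39.3 in vehicle-treated LmnaADKO mice. The ranges met at their ends: 2 of the 6 LmnaADKO mice lay below all controls, and the other 4 were between 39.0 and 39.7 CPM, beside the lowest control at 39.0. The log2 difference was -0.36 (SE 0.14, edgeR adjusted p = 0.0847) and was not called. With rescue, 2 controls had 51.0 and 52.3 CPM and the other 29.7 CPM, LmnaADKO mice ran from 25.2 to 48.2 CPM, and the genotype difference was -0.17 (SE 0.17, edgeR adjusted p = 0.643).

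Egr1 (chr18:34859823-34864984), a zinc finger transcription factor induced rapidly by ERK, varied widely. Vehicle-treated controls ran from 7.70 to 78.0 CPM with a median of 44.7. Of these, 4 lay between 44.7 and 78.0 CPM and 3 between 7.70 and 17.9 CPM. Vehicle-treated LmnaADKO mice ran from 6.71 to 20.01 CPM with a median of 16.2, rescue-treated controls were at 16.1, 18.7, and 5.82 CPM, and rescue-treated LmnaADKO mice ran from 7.39 to 31.3 CPM with a median of 13.8. The 4 highest libraries of all were thus vehicle-treated controls, while the other 3 controls lay within the ranges of the remaining groups.

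The Egr1 difference between genotypes with vehicle was -1.35 (SE 0.51, 95% interval -2.41 to -0.29, edgeR adjusted p = 0.0812), which was not called. DESeq2 called it (-1.36, adjusted p = 0.0237), as did edgeR with filterByExpr (-1.35, adjusted p = 0.041), without control 1 (-1.51, adjusted p = 0.0463), and without control 7 (-1.53, adjusted p = 0.0366). These 4 were the only calls among 31 alternative fits of this comparison. Rescue in controls gave -1.42 (SE 0.66, unadjusted p = 0.0438, edgeR adjusted p = 0.771). Rescue in LmnaADKO mice gave 0.18 (SE 0.49, edgeR adjusted p = 0.966), and the genotype difference with rescue was 0.25 (SE 0.62, edgeR adjusted p = 0.882). The change of the genotype effect with rescue was 1.60 (SE 0.81, interaction adjusted p = 0.984 by edgeR).

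Each animal is numbered in the labels with 3 or 4 digits, and this length moved with genotype in the vehicle groups. Of the vehicle-treated controls, 6 had 3-digit numbers and 1 a 4-digit number, and of the vehicle-treated LmnaADKO mice 1 and 5. The 6 controls with 3 digits had Egr1 from 10.6 to 78.0 CPM, and the control with 4 digits was at 7.70 CPM, within the 6.71 to 20.01 CPM of the 5 LmnaADKO mice with 4 digits. With number length as a covariate, the Egr1 difference was -0.60 (edgeR adjusted p = 0.646). For Spry4, the control with 4 digits was at 16.8 CPM, above the 4.87 to 11.3 CPM of those 5 LmnaADKO mice, and the LmnaADKO mouse with 3 digits was at 7.87 CPM, below the 9.44 to 31.9 CPM of the 6 controls. Spry4 differed by -1.2 with the covariate and was called (edgeR adjusted p = 0.0307). For Fgf21 the covariate gave 1.29 (edgeR adjusted p = 0.0891), with 1.95 CPM in the control with 4 digits and 9.63 CPM in the LmnaADKO mouse with 3 digits. Number length also moved with rescue in controls. All 3 rescue-treated controls had 4-digit numbers, with Egr1 from 5.82 to 18.7 CPM, and rescue-treated LmnaADKO mice had 4 of each length. What the 2 number series stand for is not given in the sources used here.

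**Figure D3:**
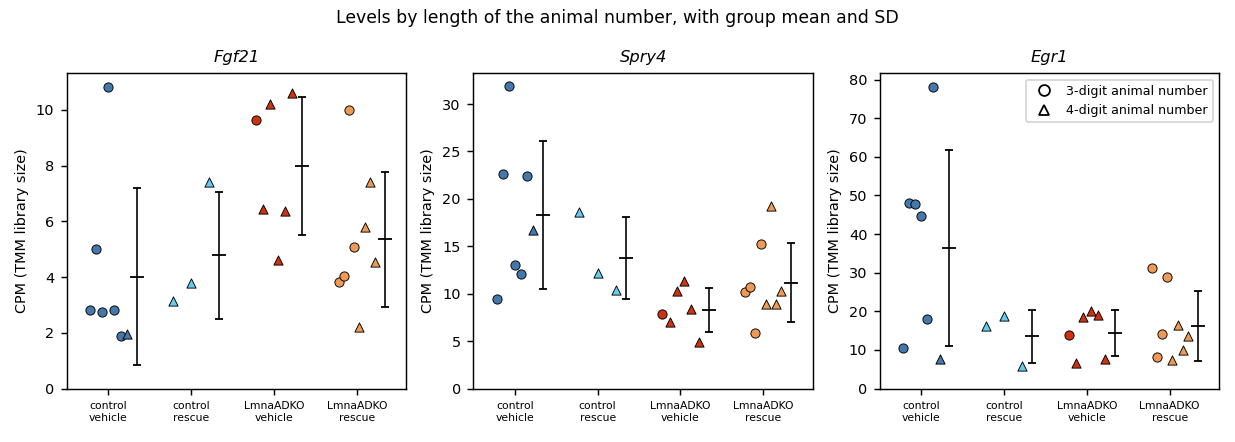
Panels plot Fgf21, Spry4, and Egr1 in CPM for every library by group, as circles for animals with 3-digit numbers and triangles for 4-digit numbers, with group mean and SD at the right. The 4 highest Egr1 libraries, from 44.7 to 78.0 CPM, are all vehicle-treated controls with 3-digit numbers. For Spry4 the vehicle-treated control with a 4-digit number, at 16.8 CPM, lies above every vehicle-treated LmnaADKO mouse.

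With rescue, 0 of the 10 genes were called by genotype in edgeR, where 2.88% of all genes were called. None of the 10 had an unadjusted p under 0.05, beside 16.9% of all genes, and DESeq2 called 0. Rescue against vehicle called 0 of 10 in controls, where 0.0542% of all genes were called, and DESeq2 called 0. There 2 of 10 (Fgfr1 and Egr1) had an unadjusted p under 0.05, beside 6.16% of all genes. In LmnaADKO mice rescue called 0 of 10 and 0% of all genes, and DESeq2 called 0 of 10. An unadjusted p under 0.05 was found for 0 of 10, beside 6.71% of all genes. Without rescue-treated LmnaADKO mouse 3, rescue called 61 genes there and again 0 of the 10. Averaged over genotypes, rescue called 0 of 10, where 0.00834% of all genes were called, and the interaction called 0 of 10, where 0.00417% were called. In each of these 2 contrasts 0 of 10 had an unadjusted p under 0.05, beside 9.1% and 4.86% of all genes, and DESeq2 called 0. With 3 rescue-treated controls, the 95% intervals of the rescue effect in controls were widest for Egr1 (-2.80 to -0.04) and Fgf21 (-0.77 to 1.24), and narrowest for Fgfr4 (-0.21 to 0.27). Each genotype comparison shares libraries with both rescue comparisons, so their values are set side by side and not correlated.

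**Figure D4:**
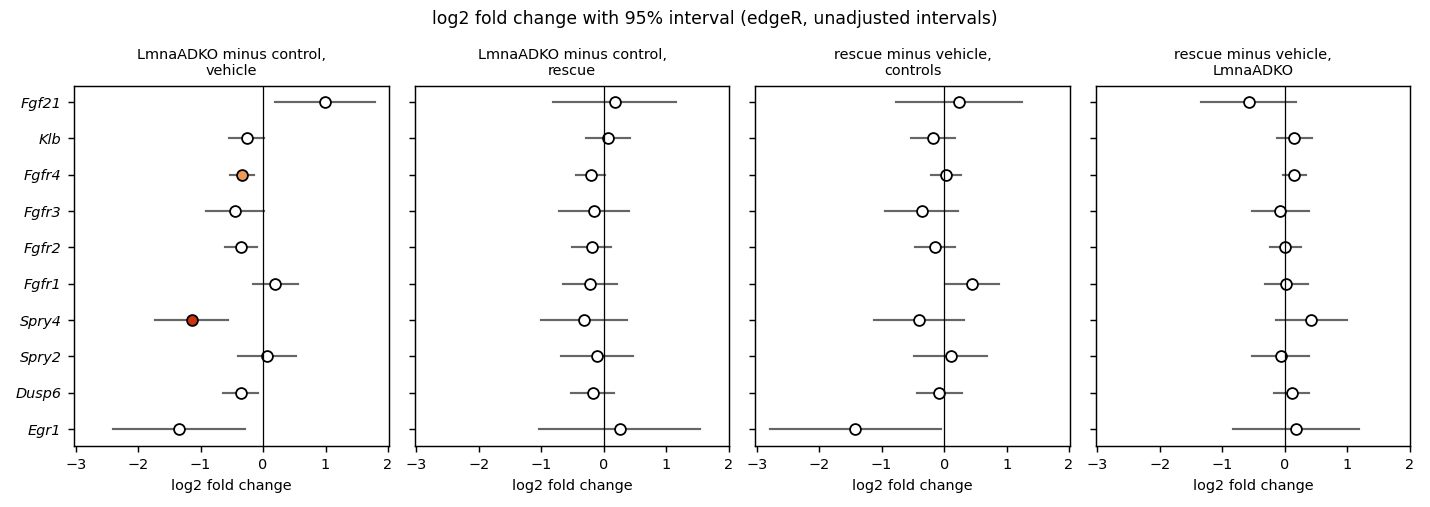
Each panel is 1 comparison, with log2 fold change on the x axis and the 10 genes on the y axis; points are edgeR estimates and lines unadjusted 95% intervals. Red is called, orange is past the adjusted p but under the fold threshold, and white is neither: with vehicle Spry4 is red at -1.14 and Fgfr4 orange at -0.33, and every point of the other 3 panels is white.

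Other genes of the pathway were followed in 7 lists, counted by the same rule with vehicle. Of the FGF ligands, 13 of 22 were in the table and 3 of them, Fgf1, Fgf2, and Fgf21, reached a mean log2 CPM of 0. By edgeR 0 of the 13 were called with vehicle, although Fgf1 and Fgf21 had an unadjusted p under 0.05 and DESeq2 called Fgf21. Of the receptors and coreceptors, 12 of 13 were in the table and 0 were called by edgeR or, among the members, by DESeq2, with Fgfr2 and Fgfr4 at an unadjusted p under 0.05. Each count of called genes below is to be read against the 8.48% of all genes called in that comparison, or the 11.7% of the 12492 genes whose mean log2 CPM reached 0. Of 18 adaptors and kinases from FRS2 to ERK, 1 fell and none rose. Of 14 feedback inhibitors 1 fell, Spry4 itself, and none rose. Of 17 early response and ETS genes, 3 rose and 2 fell. Of 15 factors known to act on Fgf21 transcription, 1 rose and 1 fell, and of 8 hepatic targets of endocrine FGFs 1 fell. Median log2 fold changes of the lists lay between -0.08 and 0.23, beside 0.00 for all genes.

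Fgf1, a paracrine FGF that binds every FGF receptor and was the most abundant ligand, ran from 70.5 to 160 CPM with a median of 105 in vehicle-treated controls. It ran from 54.3 to 91.5 CPM with a median of 74.95 in vehicle-treated LmnaADKO mice. That difference, -0.57 (SE 0.18, edgeR adjusted p = 0.0269), was under the fold threshold. With rescue, Fgf1 was at 117 to 187 CPM in controls and 58.6 to 111 CPM in LmnaADKO mice, without overlap, and fell by 0.77 (SE 0.20, edgeR adjusted p = 0.0283). That call was lost without rescue-treated LmnaADKO mouse 8 (-0.73, adjusted p = 0.0513), rescue-treated control 1 (-0.73, adjusted p = 0.086), or rescue-treated control 3 (-0.62, adjusted p = 0.217), and with only the groups compared (-0.78, adjusted p = 0.0573). It was also lost without the 3 libraries of steepest slope (-0.62, adjusted p = 0.259), with number length as a covariate (-0.66, adjusted p = 0.12), and with 4-digit numbers alone (-0.74, adjusted p = 0.069). Averaged over treatments, Fgf1 was called, with a log2 difference of -0.67 (SE 0.13, edgeR adjusted p = 0.000655). It was called there in 29 of 30 alternative fits, and not without the 3 libraries of steepest slope (-0.58, adjusted p = 0.0179). Among the adaptors, Frs3, a docking protein related to FRS2, fell by 0.72 with vehicle (SE 0.16, edgeR adjusted p = 0.00265), from 1.80 to 2.82 CPM in controls to 1.196 to 1.56 CPM in LmnaADKO mice. The Frs3 call was lost with number length as a covariate (-0.59, adjusted p = 0.0539).

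The early response genes did not move together. Ier2, an immediate early gene, ran from 21.3 to 49.4 CPM in vehicle-treated controls and from 11.6 to 18.4 CPM in vehicle-treated LmnaADKO mice, and fell by 1.06 (SE 0.18, edgeR adjusted p = 0.000125). Phlda1, which encodes a pleckstrin homology-like domain protein, ran from 27.5 to 149 CPM and from 12.3 to 23.7 CPM, and fell by 1.71 (SE 0.35, edgeR adjusted p = 0.00182). Neither gene's vehicle groups overlapped. Between the rescue groups, Ier2 differed by -0.46 (SE 0.21, edgeR adjusted p = 0.255) and Phlda1 by 0.02 (SE 0.41), and neither was called. Myc, a growth-promoting transcription factor, rose by 0.95 (SE 0.21, edgeR adjusted p = 0.00215), from a median of 2.18 CPM in controls to 5.37 CPM in LmnaADKO mice, with 1.41 to 5.03 CPM overlapping 3.65 to 6.88 CPM. With rescue, Myc was at 1.86 to 2.28 CPM in controls and 3.57 to 5.31 CPM in LmnaADKO mice (log2 difference 1.03, SE 0.28, edgeR adjusted p = 0.0298), a call lost on leaving out any of the 3 controls (adjusted p = 0.0615 to 0.159) or LmnaADKO mouse 3 (adjusted p = 0.0576), with number length as a covariate (adjusted p = 0.0872), and without the 3 libraries of steepest slope (adjusted p = 0.0705).

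The AP-1 genes Fosb and Fosl1 also rose with vehicle but rested on few reads. Fosb had 2 to 8 counts in vehicle-treated controls and 5 to 32 in vehicle-treated LmnaADKO mice (log2 difference 1.73, edgeR adjusted p = 0.0205), and was not called without LmnaADKO mouse 3 (1.36, adjusted p = 0.0963) or with number length as a covariate (1.54, adjusted p = 0.12). Fosl1 had 0 to 1 counts against 0 to 5, its adjusted p was 0.0485 by edgeR, and it was called in 14 of 24 fits that left out a library. No fold is given for it. Egr2, a close relative of Egr1, was called in neither treatment alone, with a log2 difference of 1.24 with vehicle (SE 0.47, edgeR adjusted p = 0.0777) and 1.97 with rescue (SE 0.67, edgeR adjusted p = 0.101). Averaged over treatments it rose by 1.60 (SE 0.41, edgeR adjusted p = 0.00595). Its levels were 0.0975 to 1.89 CPM in vehicle-treated controls and 0.855 to 2.08 CPM in vehicle-treated LmnaADKO mice. The ETS factor gene Etv5, another ERK target, had a log2 difference of -0.19 with vehicle (SE 0.15, edgeR adjusted p = 0.455).

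Of the factors that act on Fgf21 transcription, Mlxipl, which encodes the carbohydrate sensor ChREBP, ran from 179 to 253 CPM in vehicle-treated controls and from 89.0 to 125 CPM in vehicle-treated LmnaADKO mice, and fell by 0.95 (SE 0.13, edgeR adjusted p = 9e-06). Pparg, the nuclear receptor of fat storage, ran from 9.12 to 16.03 CPM and from 17.9 to 27.0 CPM, and rose by 0.90 (SE 0.13, edgeR adjusted p = 1.74e-05). With rescue, Mlxipl fell by 0.60 (SE 0.15, edgeR adjusted p = 0.0203) and Pparg rose by 0.59 (SE 0.16, edgeR adjusted p = 0.0365). Both rescue calls were lost in the fit of only the groups compared (adjusted p = 0.114 and 0.0908), with 4-digit numbers alone (adjusted p = 0.197 and 0.237), and without rescue-treated control 1 (adjusted p = 0.16 and 0.184) or 2 (adjusted p = 0.0683 and 0.118). Pparg also lost its rescue call without LmnaADKO mouse 3 (adjusted p = 0.0711), with number length as a covariate (adjusted p = 0.121), and, through the fold threshold, with DESeq2 (0.58, adjusted p = 0.0123) or its size factors in edgeR (0.58, adjusted p = 0.0455). In addition, single libraries moved either gene just under the fold threshold, rescue-treated LmnaADKO mouse 7 for both, mouse 2 for Mlxipl, and vehicle-treated control 3 for Pparg. Ppara, the fasting regulator of Fgf21, differed by 0.44 with vehicle (SE 0.29, edgeR adjusted p = 0.342), and Atf4, whose protein binds the composite element shown above, by -0.26 (SE 0.074, edgeR adjusted p = 0.018), under the fold threshold. Among the targets of endocrine FGFs, Slc10a1, the bile acid importer of hepatocytes, fell by 0.71 (SE 0.17, edgeR adjusted p = 0.00433), from a median of 681 to 383 CPM. Cyp7a1, the rate-limiting enzyme of bile acid synthesis, differed by -1.01 (SE 0.54, edgeR adjusted p = 0.24).

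**Figure D5:**
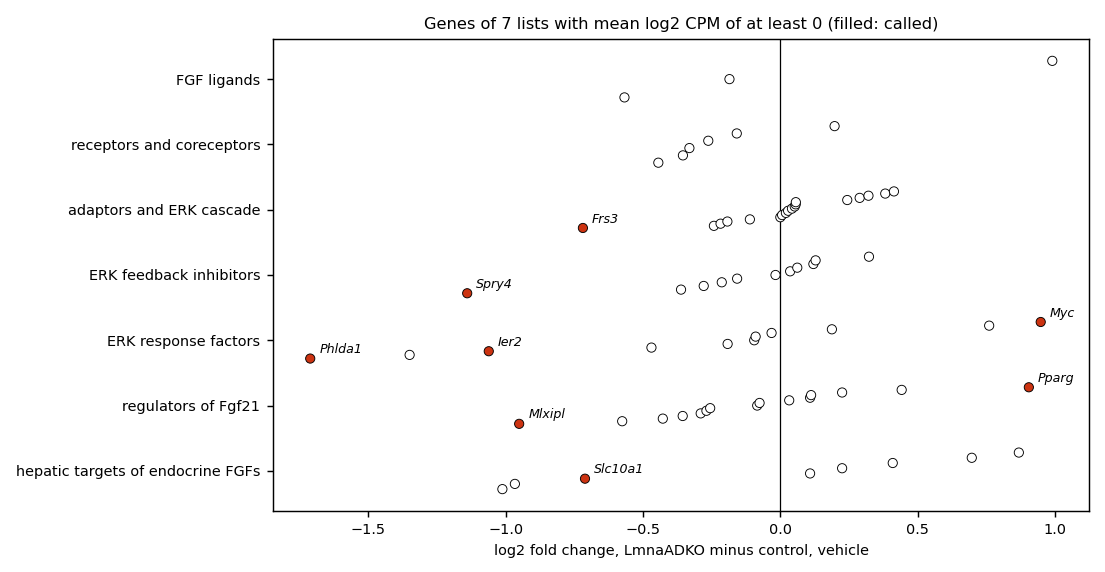
Each row is a list of pathway genes, and points are genes whose mean log2 CPM reached 0, placed by their log2 fold change between vehicle-treated LmnaADKO and control livers; red points are called. Called points lie on both sides of 0 among the response factors and the regulators of Fgf21, from Phlda1 at -1.71 to Myc at 0.95, and no receptor is called.

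Markers of some other liver cells moved with genotype beside these results. Counts of called markers are to be read against the 8.48% of all genes called by genotype with vehicle. Summed over 6 cholangiocyte markers, vehicle-treated controls held 27.1 to 51.2 CPM and vehicle-treated LmnaADKO mice 85.8 to 196 CPM, and 2 of the 6 were called higher. Summed over 6 stellate cell and fibroblast markers, the ranges were 196 to 250 CPM and 249.4 to 342 CPM, with 1 of 6 called higher. The 6 hepatocyte markers summed to 70850 to 126300 CPM and 63890 to 97960 CPM, with 0 of 6 called. None of these 18 markers was at 0 throughout a group. In vehicle-treated controls and LmnaADKO mice, 6 macrophage markers summed to 594 to 822 and 421 to 747 CPM, with 0 called. Sums of 6 endothelial markers were 217 to 273 and 206.8 to 261.5 CPM, with 1 of 6 called higher. For 5 lymphocyte markers the sums were 16.7 to 29.6 and 16.6 to 30.7 CPM, with 0 called. The part of these cell types in the levels of Spry4, Fgfr4, and the other genes was not tested.

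Within groups, 7 pairs of these genes were compared over libraries in each of the 3 groups with at least 6 libraries, giving 21 tests. After adjustment 0 of 21 passed, by Pearson or by Spearman, with exact two-sided permutation of the pairings. The strongest pairs were Spry2 with Dusp6 in vehicle-treated controls (r = -0.83, exact permutation p = 0.0179, adjusted p = 0.185; Spearman rho = -0.89, exact permutation p = 0.0123, adjusted p = 0.179) and Egr1 with Spry4 in vehicle-treated LmnaADKO mice (r = 0.84, exact permutation p = 0.0264, adjusted p = 0.185; rho = 0.89, exact permutation p = 0.0333, adjusted p = 0.179). Without the 2 libraries farthest from the median of the first gene, r was -0.52 and 0.73. Spry2 had only 14 to 29 counts per library in vehicle-treated controls, and the part of counting error in its r was not tested. Egr1 with Spry4 had r = 0.62 in vehicle-treated controls (exact permutation p = 0.138) and 0.37 in rescue-treated LmnaADKO mice (exact permutation p = 0.379).

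The genes whose log2 CPM was most like that of each member over all 24 libraries were taken from the 12492 genes whose mean log2 CPM reached 0, as a description with no test, since libraries share groups and depth. For Fgf21 they were Creb3l1 (r = 0.879), Ppic (0.877), and Csrp1 (0.866). For Klb they were Zcchc2 (0.930), Zfp871 (0.880), and Sin3a (0.876), and for Fgfr4 Zfp707 (0.830), Uba7 (0.820), and Gm49396 (0.803). For Dusp6 they were Agap3 (0.865), Zbtb12 (0.832), and Lrig3 (0.828), and for Egr1 Unk (0.758), Ptch1 (0.734), and Tcf24 (0.724). After removal of the group means, r of the first partner was 0.849 for Fgf21, 0.923 for Klb, 0.646 for Fgfr4, 0.849 for Dusp6, and 0.757 for Egr1.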

How the data were processed

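The authors deposited counts of reads per gene, without normalization, from polyA-selected, strand-specific liver libraries. The submitters' processing notes name cutadapt 4.8, FastQC 0.11.8, STAR 2.7.8a, RSEM 1.3.3, and GRCm38 without roles. If RSEM made the table, its values are rounded estimates, and whether counting used strand is not given in the sources used here. The 10 genes and the lists were chosen with earlier results of these data known. Named genes are the 10, up to 4 called genes per list and comparison with the largest log2 fold change, and the 3 nearest by correlation; Etv5, Ppara, Atf4, and Cyp7a1 were added after their values were seen. Counts were scaled by TMM and tested in 1 fit of the 4 groups over all 23972 genes with edgeR 4.0.16 in R 4.3.3 (robust quasi-likelihood F test, two-sided), called at adjusted p under 0.05 and fold above 1.5. Log2 CPM used a prior count of 2. Receptor levels per kb used GENCODE M21 exons. Replicates are separate mice, and 67 within-group library pairs differed by 14.1 to 196 chi-square per degree of freedom, so none was merged. The test was checked on simulated data. Alternatives were DESeq2 1.42.0, its size factors, filterByExpr, only the groups compared, number length or length slope as a covariate, only 4-digit numbers, leaving out the 3 libraries with the steepest slopes or each library, and the adjusted p alone. Floors cover counting error only.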

Additional observations from a re-analysis of the deposited data

Results flagged for a closer look

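Within the 30 sets of 4 to 10 libraries tested, a gene and a group each, 2 values lay far from the rest of their group by Dixon's criterion, which chance meets in about 1 in 20 sets. Both belong to vehicle-treated LmnaADKO mouse 4. Its Klb level, 32.1 CPM, stood above the other 5 at 25.8 to 26.8 CPM. The gap in log2 CPM was 0.818 of the whole range, against a critical value of 0.625. Its Fgfr3 level, 16.6 CPM, stood below the other 5 at 22.7 to 25.5 CPM, with a gap of 0.728 of the range in log2 CPM.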

How the results depend on the processing

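The count of 1 gene of 10 called by genotype with vehicle became 2 with the adjusted p alone (Spry4 and Fgfr4) and 3 with DESeq2 or filterByExpr (Spry4, Fgf21, and Egr1). Leaving out each library gave 1 to 2, with 2 without vehicle-treated control 1 or 7 (Egr1 joined) or 4 (Fgf21 joined). Averaged over treatments the count of 1 became 3 with the adjusted p alone, and leaving out each library gave 0 to 2, with 2 without vehicle-treated control 4 (Fgf21 joined, 0.82, edgeR adjusted p = 0.0199) and 0 without rescue-treated control 1. The 0 correlated pairs became 0 to 1 when libraries were left out, with Spry2 and Dusp6 in vehicle-treated controls without control 6 (r = -0.97, exact permutation, adjusted p = 0.0292). The remaining 230 recomputed counts stayed within 1.5 times, and no fold change with a call reversed. Number length overlapped with rescue in controls, since all 3 rescue-treated controls had 4-digit numbers. With it as a covariate, the Egr1 interaction was 0.34 in place of 1.60. The cause of these shifts was not tested. Over all genes, the 690 calls by genotype with rescue became 344 with only the groups compared, 402 without the 3 libraries of steepest slope, 307 with 4-digit numbers alone, and 1022 with DESeq2, and single libraries moved them both ways, to 1149 without rescue-treated LmnaADKO mouse 7 and to 416 or 339 without rescue-treated control 2 or 3. The 13 calls of rescue in controls became 38 with DESeq2 and 0 with number length as a covariate, 8 without vehicle-treated control 2, 3, or 7 or rescue-treated control 1, 26 without vehicle-treated control 6, and 3 without rescue-treated control 2. The 0 calls of rescue in LmnaADKO mice (edgeR, with 1608 genes at an unadjusted p under 0.05) became 61 without rescue-treated LmnaADKO mouse 3, 15 with DESeq2, and 2 with 4-digit numbers alone. The 2 calls of rescue averaged over genotypes became 38 with DESeq2, 22 without rescue-treated LmnaADKO mouse 3, and 0 to 4 when any other library was left out, and the single call of the interaction became 13 with DESeq2 and 0 to 5 when libraries were left out. At 7 to 30 counts, Spry2 was the gene whose depth limited it most.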
